A study of Mus musculus with 6 samples.

Results

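The genes described here encode the core proteins of the spliceosome and the heterogeneous nuclear ribonucleoproteins (hnRNPs). Members were chosen by symbol alone, as every gene of the deposited table whose symbol begins with Snrp, Sf3a or Sf3b plus a digit, Prpf plus a digit, Lsm plus a digit, U2af or Hnrnp, leaving out symbols that carry the pseudogene mark -ps. This gave 71 genes of the 56691 in the table. By the role of the protein, 20 were hnRNP genes and 28 encoded the core of the small nuclear ribonucleoproteins (snRNPs): 8 proteins of the Sm ring, 3 of U1, 11 of U2 and 6 of U5 and U4/U6. The other 23 were 13 LSm genes, 6 further Prpf genes, 3 genes of the U2AF family and Snrpert, which the table describes as an Snrpe pseudogene. Proteins with Snrnp symbols, such as the U1 protein Snrnp70, are not caught by this name pattern and are given further on as related genes.

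RNA was sequenced from a mouse macrophage cell line (RAW246.7 in the labels' spelling), of wild-type (WT) genotype, LPS pretreated, in 6 libraries. LPS, from the outer membrane of bacteria, is a strong activator of macrophages. In 3 libraries the cells had spent 24 h on MSA-DA hydrogels, and in the other 3 libraries 24 h on MSA-ZW hydrogels. By its title the series concerns macroporous hydrogels that take up protein to differing degrees, the fibrin networks formed by them, and macrophage function. All cells shared the LPS pretreatment, and no library of cells off the gels or without LPS was analysed here. The labels do not state separate cultures behind the replicates, so p-values measure the spread between these libraries, which may be technical.

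Pre-mRNA is spliced by snRNPs, each a small nuclear RNA with a ring of Sm or LSm proteins and proteins of its own. The U1 snRNP recognises the start of an intron, U2AF and the U2 snRNP its end and branch site, and U4/U6 and U5 then join to form the active enzyme. The hnRNPs coat nascent transcripts and, by binding short sequences in them, favour or block the use of nearby splice sites; several also carry messages to the cytoplasm or set their stability. In macrophages these proteins shape how inflammatory transcripts are spliced and how long they last.

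Library totals were 14374912 to 18346615 counts in the MSA-DA libraries and 16347934 to 18193026 in the MSA-ZW libraries. The 8 macrophage markers examined (such as Csf1r and Cd68) lay between 7.35 and 1769 FPKM (counts relative to gene length and library total), while the 13 markers of fibroblast, epithelial, endothelial, T and B cells reached at most 0.32 FPKM. The MSA-ZW libraries varied more among themselves than the MSA-DA libraries: the chi-square per degree of freedom between pairs was 1.56 to 1.65 within MSA-DA and 2.75 to 4.48 within MSA-ZW, against 5.71 to 9.26 between the groups. The members together held 1.53 to 1.54% of all counts in the MSA-DA libraries and 1.48 to 1.51% in the MSA-ZW libraries. Levels are relative to all RNA of a library, so less RNA per cell and fewer cells of a type cannot be told apart.

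Of the 71 members, 70 had enough counts to be tested and 14 passed the edgeR quasi-likelihood test at an adjusted p below 0.05 (20%), against 13.4% of all 12467 genes tested. On MSA-DA, 10 members were higher (14.3%, against 6.92% of all genes) and 4 were lower (5.71%, against 6.50%). The 2 groups of libraries did not overlap for 30 of the 70 members (42.9%, against 28.4% of all genes tested). Most members are abundant, and abundant genes were called more often: among genes of at least 64 CPM (counts scaled to library size), 12 of 49 members (24.5%) and 26.8% of all genes passed. At that depth 16.3% of members and 14.3% of all genes were higher, and 8.16% and 12.4% were lower. The called changes were small, between 1.06-fold and 1.33-fold, and the median log2 difference over the members was 0.02, with a range of -0.15 to 0.60, where the median of all genes was 0.00. Without MSA-DA 2 the test called 8 members, and without MSA-DA 3 or without MSA-ZW 1 it called 9; of all genes it called 1001 without MSA-DA 2 and 1065 without MSA-DA 3, in place of 1673.

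**Figure D1:**
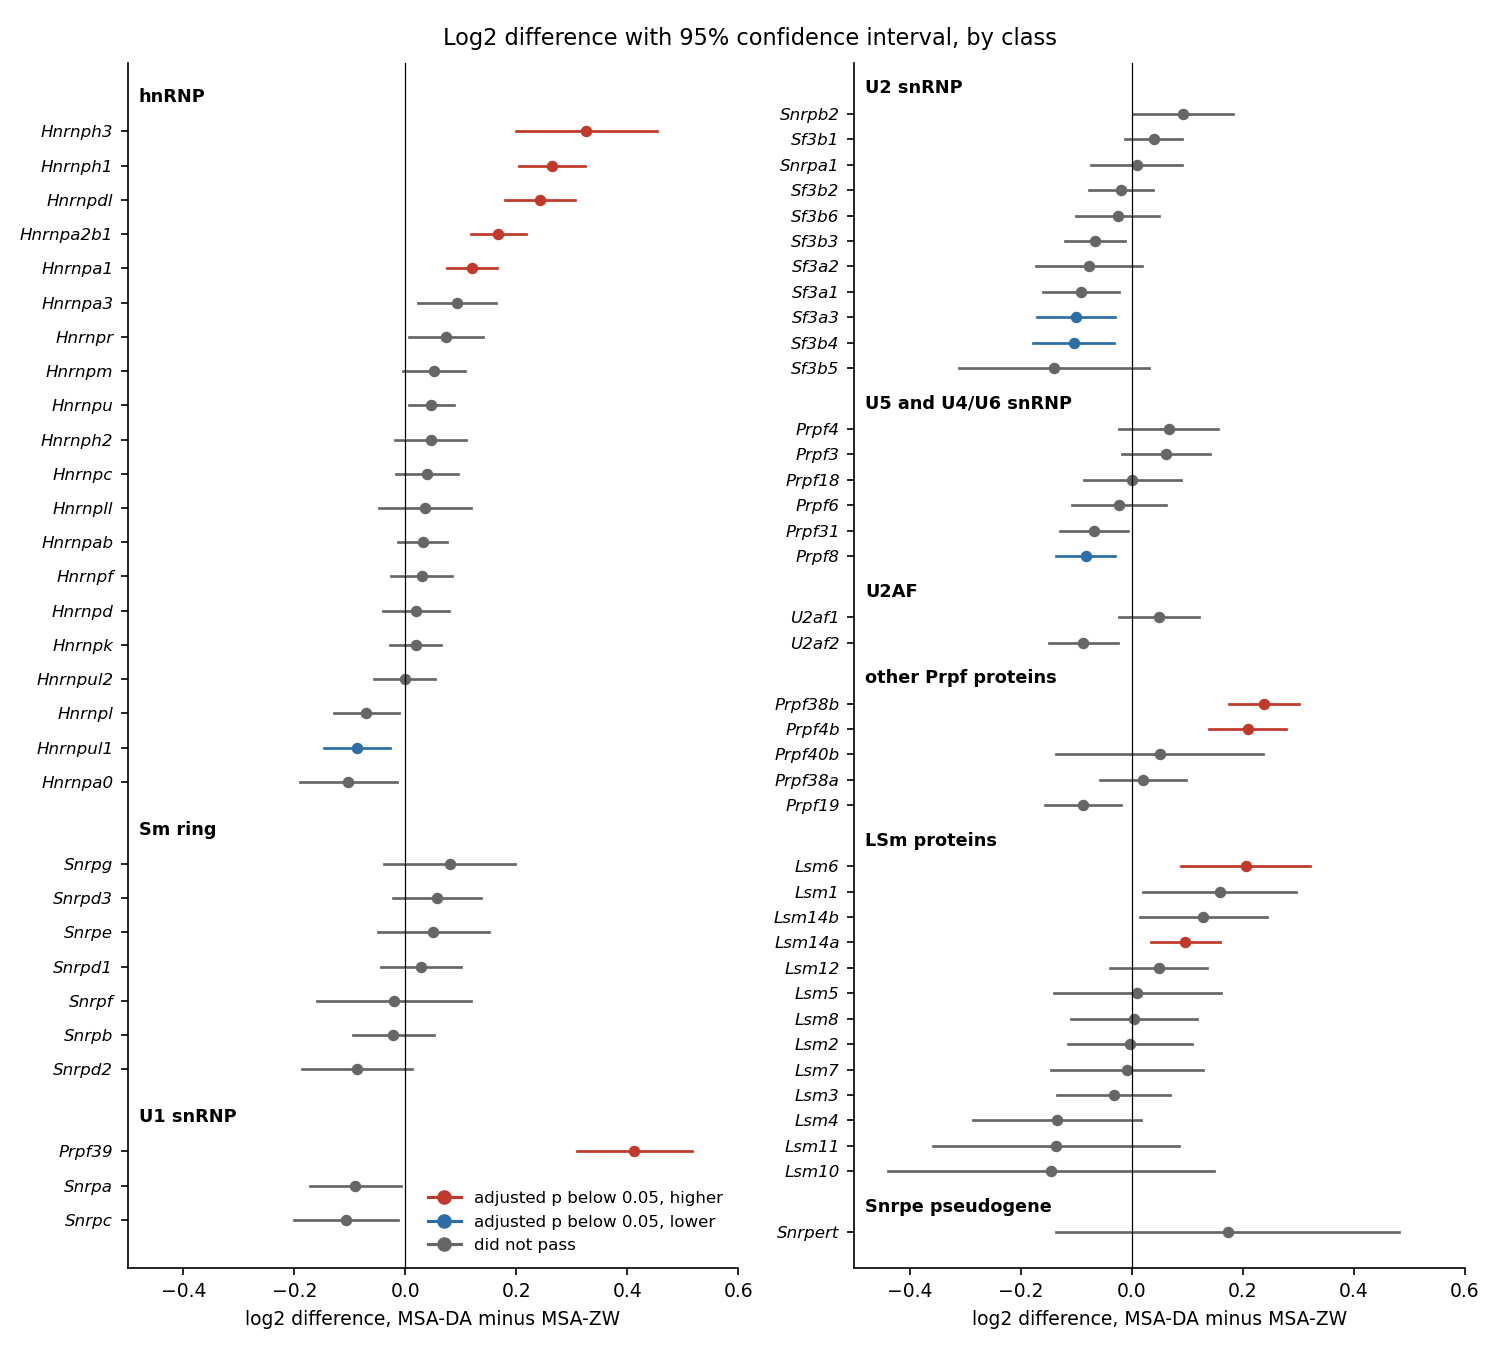
Log2 difference of CPM between MSA-DA and MSA-ZW for tested members with their 95% confidence intervals (horizontal axis, MSA-DA minus MSA-ZW), grouped by class; colours mark members past an adjusted p of 0.05 in edgeR. U2af1l4, at 0.60 with an interval of -0.03 to 1.22, is left off for its width. Calls to the right come from hnRNP, U1, LSm and other Prpf genes, and most U2 genes lie to the left of 0.

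Most calls among the hnRNP genes were higher on MSA-DA. Of 20 tested, 5 rose, 1 fell and 14 did not pass. The share that rose was 25%, against 6.92% of all genes and 14.3% of those of at least 64 CPM. The share that fell was 5%, against 6.50% and 12.4%. Of the 20 log2 differences, 16 were above 0, with a median of 0.04; with offsets for GC content and length, 11 were. Their summed level was 9323, 9446 and 9510 CPM in the MSA-DA libraries, against 9049, 8886 and 9063 CPM in the MSA-ZW libraries, a mean of 9426 ± 95.3 against 8999 ± 98.7 CPM (SD, n = 3 each). All MSA-DA sums lay above all MSA-ZW sums. The 5 that rose belong to 3 small families: Hnrnpa1 and Hnrnpa2b1, Hnrnph1 and Hnrnph3, and Hnrnpdl.

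Hnrnph1 (chr11:50267817-50277355, plus strand, GRCm39 as are all coordinates of the deposited table) encodes a protein that binds runs of G and regulates alternative exons. It was read at 460, 466 and 482 CPM in the MSA-DA libraries, against 409, 375 and 389 CPM in the MSA-ZW libraries. The lowest MSA-DA library stood above the highest MSA-ZW library, and the level was 1.20-fold higher on MSA-DA (log2 difference 0.26, SE 0.03, edgeR adjusted p = 4.86e-08). Hnrnph3 (chr10:62850443-62859996, minus strand), its shorter relative, had 46.3, 44.8 and 48.2 CPM on MSA-DA, against 34.6, 34.8 and 41.4 CPM on MSA-ZW. It was 1.25-fold higher (log2 difference 0.33, SE 0.06, edgeR adjusted p = 3.50e-04), and MSA-ZW 3 lay closest to the MSA-DA libraries. Its annotated span overlaps Rufy2 on the opposite strand over 2547 bases; Rufy2 averaged 417 counts where Hnrnph3 averaged 690, with a log2 difference of 0.21 (edgeR adjusted p = 0.0527). Whether reads were assigned by strand is not stated, and the part of Rufy2 reads in the Hnrnph3 count was not tested. The other G-run binders of the family gave log2 differences of 0.05 for Hnrnph2, with an interval of -0.02 to 0.11, and of 0.03 for Hnrnpf, with an interval of -0.03 to 0.09, and neither passed.

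Hnrnpa2b1 (chr6:51437912-51446874, minus strand) encodes a shuttling protein that binds pre-mRNA and also guides RNA transport. It had 1090, 1142 and 1130 CPM in the MSA-DA libraries, against 1034, 974 and 985 CPM in the MSA-ZW libraries. The groups did not overlap and the level was 1.12-fold higher on MSA-DA (log2 difference 0.17, SE 0.02, edgeR adjusted p = 5.41e-06). Hnrnpa1 (chr15:103148859-103155119, plus strand), the classic repressor of exon inclusion, had 1041, 1047 and 1053 CPM on MSA-DA, against 959, 958 and 972 CPM on MSA-ZW. It was 1.09-fold higher (log2 difference 0.12, SE 0.02, edgeR adjusted p = 1.61e-04), with very little spread inside either group. Hnrnpa1 has many processed copies in the genome, and how reads shared with them were assigned is not stated. Among its other relatives, Hnrnpa3 was read at 137 ± 4.84 CPM on MSA-DA, against 129 ± 1.11 CPM on MSA-ZW (SD, n = 3 each) with no overlap, and edgeR gave an adjusted p of 0.0689. Hnrnpa0, which binds AU-rich elements of inflammatory messages, had a log2 difference of -0.10 with an interval of -0.19 to -0.02, and its groups overlapped.

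Hnrnpdl (chr5:100181436-100187523, minus strand), a relative of the AU-rich element binder Hnrnpd, had 192, 192 and 196 CPM in the MSA-DA libraries, against 160, 165 and 165 CPM in the MSA-ZW libraries. Both groups were tight and apart, and the level was 1.18-fold higher on MSA-DA (log2 difference 0.24, SE 0.03, edgeR adjusted p = 5.94e-07). Hnrnpd itself averaged 246 ± 2.34 CPM on MSA-DA, against 242 ± 4.61 CPM on MSA-ZW (SD, n = 3 each), with overlapping groups. The single hnRNP gene that fell was Hnrnpul1 (chr7:25420590-25454182, minus strand), which encodes a relative of hnRNP U. It had 256, 253 and 261 CPM on MSA-DA, against 271, 268 and 280 CPM on MSA-ZW. The difference was 1.06-fold lower on MSA-DA (log2 difference -0.09, SE 0.03, edgeR adjusted p = 0.0428). This call was lost without MSA-DA 1, 2 or 3 or MSA-ZW 1 or 3, each left out alone (edgeR adjusted p 0.0581 to 0.173).

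Several of the most abundant hnRNP genes did not pass. Per length, Hnrnpab stood highest of all members at 390 FPKM on MSA-DA and 383 FPKM on MSA-ZW, followed by Hnrnpa1 (331 and 306 FPKM), Hnrnpa2b1 (170 and 152 FPKM) and Hnrnpk (135 and 134 FPKM). Hnrnpu, a chromatin-associated scaffold protein, had 1401, 1405 and 1414 CPM in the MSA-DA libraries, against 1361, 1363 and 1361 CPM in the MSA-ZW libraries. Those groups did not overlap, yet the log2 difference was 0.05 with a 95% interval of 0.01 to 0.09 and edgeR gave an adjusted p of 0.129. Hnrnpk, which binds C-rich stretches, had 873, 879 and 870 CPM on MSA-DA, against 876, 852 and 860 CPM on MSA-ZW, with an interval of the log2 difference of -0.03 to 0.06. Hnrnpc, which binds uridine tracts, had 407, 408 and 423 CPM on MSA-DA, against 398, 396 and 411 CPM on MSA-ZW, with an interval of -0.02 to 0.09. For both, the groups overlapped. With offsets for GC content and length, the differences of Hnrnpu, Hnrnpk and Hnrnpc turned to 0.00, -0.03 and -0.01. Hnrnpm, reported to restrain the splicing of innate immune transcripts in macrophages, averaged 434 ± 5.20 CPM on MSA-DA, against 419 ± 11.1 CPM on MSA-ZW (SD, n = 3 each) and did not pass (edgeR adjusted p = 0.236).

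**Figure D2:**
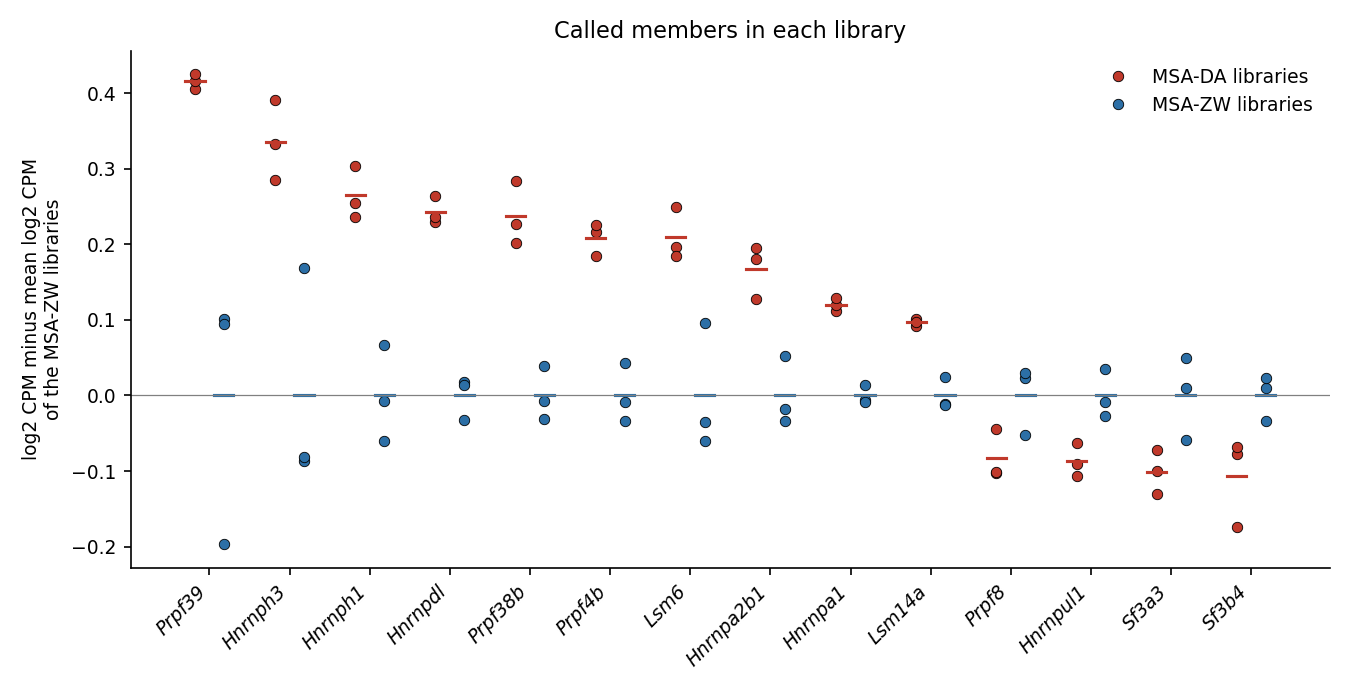
Level of each member past an adjusted p of 0.05 in every library, as log2 CPM minus the mean log2 CPM of the 3 MSA-ZW libraries (vertical axis); bars mark the group means, MSA-DA left of MSA-ZW. The 10 higher members keep all MSA-DA libraries above all MSA-ZW libraries, and among the 4 lower members the groups overlap for Prpf8.

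In the snRNP core the calls were fewer and went mostly the other way. Of 27 tested members, 1 rose (Prpf39), 3 fell (Sf3a3, Sf3b4 and Prpf8) and 23 did not pass. The share called, 14.8%, was near the 13.4% of all genes and under the 26.8% of genes of at least 64 CPM. The latter is not matched in depth, as core genes such as Snrpf (26.8 CPM) and Sf3b5 (19.5 CPM) lie under 64 CPM. Every called core gene lies above it. Of the log2 differences of the core, 11 were above 0 and 16 below, with a median of -0.02. The summed level of the core was 4067, 4020 and 4027 CPM in the MSA-DA libraries, against 4089, 4091 and 4102 CPM in the MSA-ZW libraries, a mean of 4038 ± 25.5 against 4094 ± 7.19 CPM (SD, n = 3 each). The sums of the core lay lower in every MSA-DA library, while those of the hnRNP genes lay higher. Prpf8, which is part of the core sum, averaged 614 CPM on MSA-DA, against 651 CPM on MSA-ZW. The hnRNP sum likewise includes called genes, among them Hnrnpa2b1 (1121 against 998 CPM), Hnrnpa1 (1047 against 963 CPM) and Hnrnph1 (470 against 391 CPM). The 1 hnRNP gene called lower, Hnrnpul1, averaged 257 CPM on MSA-DA, against 273 CPM on MSA-ZW. The mean log2 CPM over the core genes overlapped between the groups. It was 6.736, 6.730 and 6.737 on MSA-DA, against 6.728, 6.739 and 6.759 on MSA-ZW. Groups did not overlap for 8 of the 27 core members (29.6%) and for 11 of the 20 hnRNP genes (55%), against 28.4% of all genes tested and 42.5% of those of at least 64 CPM. The 2 classes were compared by their counts and medians, with no test of the difference between them. The lower calls of the core were the less stable ones: edgeR called 1 without MSA-DA 1, 0 without MSA-DA 2 or MSA-DA 3, and 1 without MSA-ZW 1 or MSA-ZW 2, and without MSA-ZW 3 the higher calls of the core numbered 2. The core median was -0.05 without MSA-ZW 1, -0.04 without MSA-ZW 2 and 0.00 without MSA-ZW 3.

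The Sm ring, the protein collar shared by the major snRNPs, showed no called member. None of its 7 tested genes passed in edgeR, where 13.4% of all genes did, and DESeq2 and limma called 0 as well. For 7 genes, 0 calls is not far from that share. In edgeR 0 of the 7 had an unadjusted p below 0.05, against 3143 of all 12467 genes. The log2 differences of the 7 genes ran from -0.09 for Snrpd2 to 0.08 for Snrpg, with a median of 0.03. The most abundant by CPM, Snrpd1, averaged 123 ± 4.48 CPM on MSA-DA, against 121 ± 0.642 CPM on MSA-ZW (SD, n = 3 each), with an interval of the log2 difference of -0.04 to 0.10. For each of the 7 genes the groups of libraries overlapped, where 28.4% of all genes tested did not overlap. The last ring gene, Snrpn, an imprinted gene used mainly in brain, had 0 counts in all 6 libraries, which allows up to 3 counts a library. Snrpert was read at about 5 CPM in both groups and did not pass (log2 difference 0.17, interval -0.14 to 0.48).

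The U1 genes went in different directions. Prpf39 (chr12:65083107-65110160, plus strand), a U1-associated protein with a role in alternative splicing, had 99.9, 101 and 101 CPM in the MSA-DA libraries, against 80.9, 80.5 and 65.8 CPM in the MSA-ZW libraries. The MSA-DA libraries were nearly equal and MSA-ZW 3 was the lowest of all. Prpf39 was 1.33-fold higher on MSA-DA (log2 difference 0.41, SE 0.05, edgeR adjusted p = 3.24e-07), the largest called difference among the members, and 0.32 on the log2 scale without MSA-ZW 3. It overlaps Fkbp3 on the opposite strand over 963 bases; Fkbp3 averaged 2613 counts where Prpf39 averaged 1453, with a log2 difference of 0.13 (edgeR adjusted p = 0.00814), and the part of Fkbp3 reads in the Prpf39 count was not tested. Snrpa and Snrpc, proteins of the U1 particle itself, lay at log2 differences of -0.09 and -0.11 and did not pass (edgeR adjusted p = 0.148 and 0.128). Snrnp70, the U1 protein outside the name pattern, had 255, 248 and 246 CPM on MSA-DA, against 252, 249 and 246 CPM on MSA-ZW, a log2 difference of 0.00.

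Among the 11 U2 genes, which recognise the branch site, 2 fell, 0 rose and 9 did not pass, and 8 of the 11 log2 differences were below 0. The share that rose was 0%, against 6.92% of all genes. The share that fell was 18.2%, against 6.50% of all genes and 12.4% of those of at least 64 CPM. Their sum was 2082 ± 7.95 CPM on MSA-DA, against 2119 ± 11.8 CPM on MSA-ZW (SD, n = 3 each). No U2 gene was called higher by DESeq2 or limma either, 1 had an unadjusted p below 0.05 in that direction in edgeR, and 1 was called higher without MSA-ZW 3. Sf3a3 (chr4:124608569-124626253, plus strand), a subunit of SF3a, had 141, 138 and 144 CPM in the MSA-DA libraries, against 152, 157 and 145 CPM in the MSA-ZW libraries. MSA-DA 3 and MSA-ZW 3 nearly met, and the level was 1.07-fold lower on MSA-DA (log2 difference -0.10, SE 0.03, edgeR adjusted p = 0.0466). Sf3b4 (chr3:96079648-96084880, plus strand), the SF3b subunit that touches RNA next to the branch site, had 118, 126 and 127 CPM on MSA-DA, against 134, 130 and 135 CPM on MSA-ZW. It was 1.08-fold lower (log2 difference -0.10, SE 0.04, edgeR adjusted p = 0.0470). Both calls sat just inside the threshold: that of Sf3a3 was lost without any one of MSA-DA 1, 2 and 3 and MSA-ZW 1 and 2 (edgeR adjusted p 0.0552 to 0.208), and that of Sf3b4 without any one of MSA-DA 1, 2 and 3 and MSA-ZW 1 and 3 (0.0506 to 0.227). Sf3a1, whose loss alters Myd88 splicing in mouse macrophages, averaged 139 ± 3.16 CPM on MSA-DA, against 148 ± 3.34 CPM on MSA-ZW (SD, n = 3 each), with no overlap and an edgeR adjusted p of 0.0664. Sf3b1, the largest SF3b subunit and the target of splicing inhibitors, had 567, 555 and 573 CPM on MSA-DA, against 559, 541 and 550 CPM on MSA-ZW; these overlapped, and the interval of the log2 difference was -0.01 to 0.09, with a value of 0.00 under the GC and length offsets.

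Of the 6 genes of U5 and U4/U6, only Prpf8 passed (16.7%, against 13.4% of all genes and 26.8% of those of at least 64 CPM). Prpf8 (chr11:75377642-75400275, plus strand), the central scaffold of the catalytic spliceosome, had 631, 606 and 606 CPM in the MSA-DA libraries, against 661, 664 and 627 CPM in the MSA-ZW libraries. MSA-DA 1 stood above MSA-ZW 3, so the groups overlapped, with a 1.06-fold lower level on MSA-DA (log2 difference -0.08, SE 0.03, edgeR adjusted p = 0.0313). The call was lost without MSA-DA 2, MSA-DA 3, MSA-ZW 1 or MSA-ZW 2, each left out alone (edgeR adjusted p 0.0907 to 0.150). The tri-snRNP proteins Prpf3, Prpf4, Prpf6 and Prpf31 did not pass, with log2 differences between -0.07 for Prpf31 and 0.07 for Prpf4, and Prpf18, which acts at the second step of splicing, was at 0.00.

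The U2AF genes, whose proteins read the end of the intron, had 0 calls in edgeR, DESeq2 and limma. In edgeR 13.4% of all genes passed. There, 1 of the 3 U2AF genes had an unadjusted p below 0.05. For all 3, the groups of libraries did not overlap, as for 28.4% of all genes tested and 42.5% of those of at least 64 CPM. The direction differed among the 3 genes. U2af2, the subunit that binds the pyrimidine tract, had 225, 218 and 217 CPM in the MSA-DA libraries, against 241, 228 and 232 CPM in the MSA-ZW libraries, and narrowly missed the threshold (log2 difference -0.09, interval -0.15 to -0.03, edgeR adjusted p = 0.0540). It passed without MSA-ZW 2 (edgeR adjusted p = 0.0363), without MSA-ZW 3 (0.0309) and, with all 6 libraries, without ribosomal-RNA-like and mitochondrial genes (0.0338). U2af1, its partner that reads the AG at the intron end, had 114, 115 and 118 CPM on MSA-DA, against 111, 112 and 112 CPM on MSA-ZW (log2 difference 0.05, interval -0.02 to 0.12). U2af1l4, a relative of U2af1, was near 1.56 CPM on MSA-DA, against 1.03 CPM on MSA-ZW, with an interval of -0.03 to 1.22 that leaves its direction unsettled.

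Among the other Prpf genes, 2 of 6 rose and 0 fell. The share that rose was 33.3%, against 6.92% of all genes and 14.3% of those of at least 64 CPM. Of all genes, 6.50% fell in edgeR. DESeq2 and limma called 0 of the 6 lower too. In edgeR, 1 had an unadjusted p below 0.05 in the lower direction, and 1 was called lower without MSA-ZW 2. Prpf38b (chr3:108810121-108819043, minus strand), a relative of the spliceosome activation protein Prpf38a, had 231, 244 and 235 CPM in the MSA-DA libraries, against 206, 200 and 196 CPM in the MSA-ZW libraries. The groups were well apart, at 1.18-fold higher on MSA-DA (log2 difference 0.24, SE 0.03, edgeR adjusted p = 9.55e-07). Prpf4b (chr13:35059285-35090047, plus strand), a kinase that phosphorylates tri-snRNP proteins, had 142, 143 and 138 CPM on MSA-DA, against 126, 121 and 119 CPM on MSA-ZW. It was 1.16-fold higher (log2 difference 0.21, SE 0.03, edgeR adjusted p = 3.99e-05), again without overlap. Prpf38a did not pass, with a log2 difference of 0.02 and an interval of -0.06 to 0.10. Prpf19, the ubiquitin ligase of the complex named after it, lay at a log2 difference of -0.09 (edgeR adjusted p = 0.0816).

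The LSm proteins form the ring of U6 in the nucleus and, in another combination, a cytoplasmic ring that promotes decapping and decay of messages. Of 13 genes, 2 rose in edgeR and 0 fell, with 0 at an unadjusted p below 0.05 in the lower direction and 0 lower by DESeq2 or limma. The share called, 15.4%, was near the 13.4% of all genes, of which 6.92% were higher and 6.50% lower. Lsm6 (chr8:79531494-79547769, minus strand), a subunit of both rings, had 46.1, 44.5 and 44.1 CPM in the MSA-DA libraries, against 37.9, 37.2 and 41.5 CPM in the MSA-ZW libraries. It was 1.15-fold higher on MSA-DA (log2 difference 0.21, SE 0.06, edgeR adjusted p = 0.0130). Lsm14a (chr7:34044071-34092740, minus strand), a processing-body protein that represses translation, had 197, 198 and 198 CPM on MSA-DA, against 184, 183 and 188 CPM on MSA-ZW. It was 1.07-fold higher (log2 difference 0.10, SE 0.03, edgeR adjusted p = 0.0280). Neither call held throughout: Lsm6 was lost without any one of MSA-DA 1 and 2 and MSA-ZW 1 and 2 (edgeR adjusted p 0.0502 to 0.0804), and Lsm14a without any one of MSA-DA 1, 2 and 3 and MSA-ZW 1 and 2 (0.0869 to 0.140). Of the other subunits of the U6 ring, Lsm2, Lsm3, Lsm4, Lsm5, Lsm7 and Lsm8 had log2 differences between -0.14 and 0.01, and none passed. Lsm1, found only in the cytoplasmic ring, was at 0.16 (interval 0.02 to 0.30, edgeR adjusted p = 0.128). Lsm10 and Lsm11, of the U7 particle that processes histone messages, were at -0.15 and -0.14 with wide intervals.

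**Figure D3:**
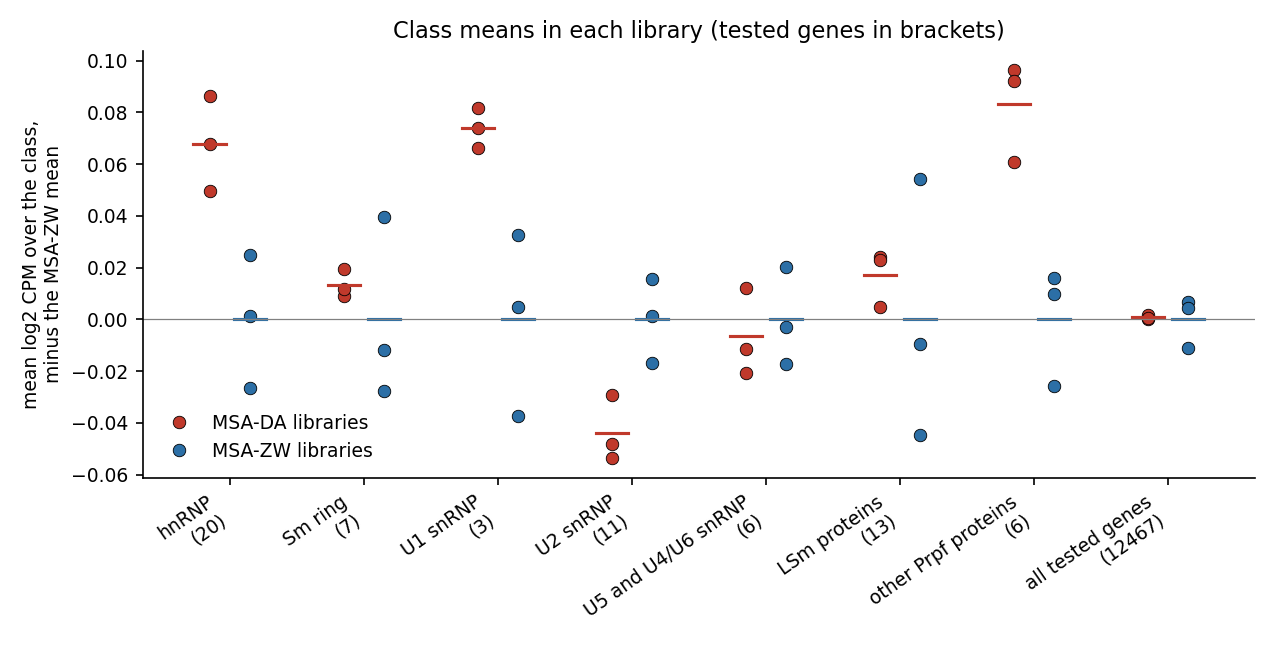
Mean log2 CPM over the tested genes of each class in every library, minus the mean of the MSA-ZW libraries (vertical axis), with bars at the group means and the number of genes in brackets; U2AF, with 1 gene near 1 CPM, and Snrpert are not drawn. MSA-DA libraries lie above MSA-ZW libraries for hnRNP, U1 and other Prpf genes and below them for U2 genes; the U1 mean is carried by Prpf39.

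Set against the hnRNP genes, the snRNP core had 1 of 27 members higher where the hnRNP genes had 5 of 20. These shares were 3.70% and 25%, against 6.92% of all genes. Prpf39 was the only core gene called higher in edgeR, DESeq2 and limma. In edgeR 1 other core gene had an unadjusted p below 0.05 in that direction. Without MSA-ZW 3 edgeR called 1 other core gene higher, a U2 gene. The mean log2 CPM over the hnRNP genes was 8.36 on MSA-DA and 8.29 on MSA-ZW, and over the core genes 6.73 on MSA-DA and 6.74 on MSA-ZW. The 8 members Hnrnph1, Hnrnpdl, Hnrnpa2b1, Hnrnpa1, Hnrnph3, Prpf38b, Prpf4b and Prpf39 kept their call in all 17 alternative settings tried, leaving out each library included, and all 8 were higher on MSA-DA. Each of the 4 lower members lost its call in 8 to 12 of the 17 settings.

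Base composition moved with these differences. The GC content here is that of the longest annotated transcript. Of the 70 tested members, 28 lay below 45% GC. Of these 28, 7 were called higher and 0 lower, with 0 at an unadjusted p below 0.05 in the lower direction. DESeq2 and limma called 0 of them lower. Among the members at 45% or more, 3 were called higher and 4 lower. The same tilt was present in all tested genes: below 45% GC 13.9% were higher and 2.34% lower, and at 45% or more 4.30% were higher and 8.12% lower. Genes are no independent replicates of one another and here share libraries and depth; across them, Spearman's rho between GC content and the log2 difference was -0.53 over the 70 members, -0.53 over the hnRNP genes, -0.54 over the core genes and -0.32 over all genes with a GC value. The hnRNP genes had a median GC content of 43.9% and the core genes of 47.5%. Below 45% GC, 12 of 12 hnRNP genes and 7 of 9 core genes had a log2 difference above 0. Of all tested genes below 45%, 2396 of 3424 did. At 45% or more, 4 of 8 tested hnRNP genes and 4 of 18 tested core genes did, against 3787 of 8905 tested genes.

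The test was therefore repeated with per-library offsets for GC content and exonic gene length. With them the correlation with GC content was -0.16 over the members and -0.02 over all genes. The test then called 9 members higher and 1 lower, in place of 10 and 4. Among hnRNP genes the same test gave 5 higher and 0 lower, and among core genes 1 higher and 1 lower. The median over all members turned to -0.01, and class medians moved to 0.01 for hnRNP genes and -0.03 for core genes. The log2 differences became 0.18 for Hnrnph1, 0.28 for Hnrnph3, 0.22 for Hnrnpdl, 0.13 for Hnrnpa2b1 and 0.08 for Hnrnpa1, and all 5 still passed (highest edgeR adjusted p = 0.0110). Prpf39 stood at 0.35, Prpf38b at 0.17 and Prpf4b at 0.15, and these passed too. Of the lower members, Sf3a3 passed at -0.10 (edgeR adjusted p = 0.0467), and Prpf8 (0.146) and Sf3b4 (0.455) did not.

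**Figure D4:**
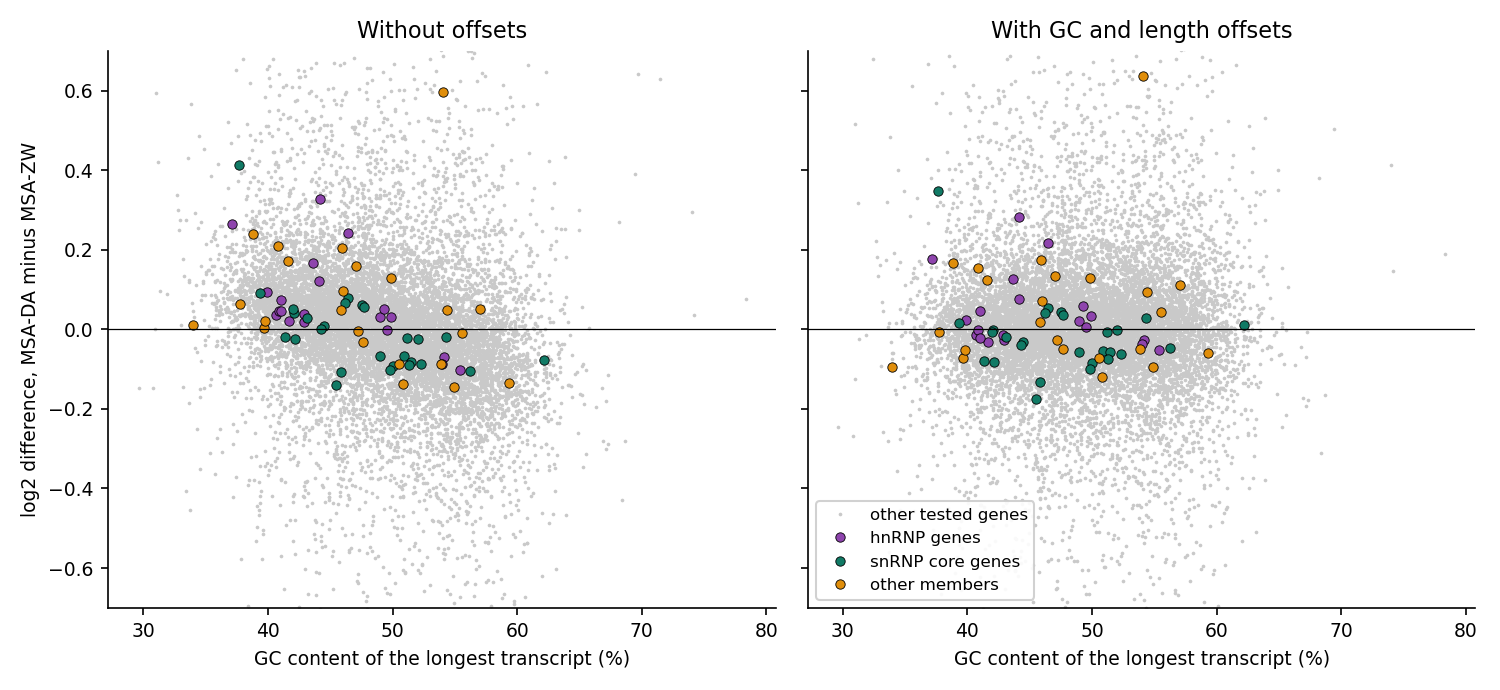
Log2 difference, MSA-DA minus MSA-ZW (vertical axis), against GC content of the longest transcript in percent (horizontal axis) for hnRNP genes, snRNP core genes, other members and all other tested genes, without (left) and with (right) GC and length offsets. The vertical axis is cut, and some other genes lie outside it. The downward slope of the members on the left, with a rho of -0.53, is nearly flat on the right, with a rho of -0.16.

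The splicing genes around the name pattern were read as 6 lists of 76 genes, all tested. Of these, 8 were higher (10.5%, against 6.92% of all genes) and 3 lower (3.95%, against 6.50%) in edgeR, in all 14.5% against 13.4% of all genes. Their median log2 difference was 0.00. Without MSA-DA 2 and without MSA-DA 3 the higher calls numbered 4 and 3, and the lower calls 1 and 0. Without MSA-ZW 2 the lower calls numbered 1, and without MSA-DA 1, MSA-ZW 1 or MSA-ZW 3 they numbered 2. Of 7 proteins with Snrnp symbols, 1 rose: Snrnp48, of the minor spliceosome, averaged 50.6 ± 4.15 CPM on MSA-DA, against 38.0 ± 1.04 CPM on MSA-ZW (SD, n = 3 each), 1.33-fold higher (edgeR adjusted p = 3.74e-06). Of 10 exon junction genes, 2 rose: Pnn, a speckle protein, averaged 229 ± 4.89 CPM on MSA-DA, against 191 ± 3.32 CPM on MSA-ZW, and Upf3b, which links the junction complex to message decay, averaged 64.2 ± 1.63 CPM on MSA-DA, against 58.5 ± 0.988 CPM on MSA-ZW (SD, n = 3 each). The list of the Prpf19 complex and its partners had 1 of 16 higher (Bcas2, 1.10-fold) and 1 lower (Xab2, 1.13-fold lower). The list of Sm ring assembly had 1 of 15 higher and 1 lower. These were Tgs1, which methylates the cap of small nuclear RNAs (1.10-fold higher), and Prmt5, which methylates Sm proteins (1.08-fold lower). Among 14 helicases and second-step factors Cwc27 and Ddx46 rose, at 1.16-fold and 1.07-fold. Of 14 further tri-snRNP proteins Ik rose, at 1.11-fold, and Eftud2, the U5 GTPase, fell, at 1.07-fold lower. Eftud2 lay on the same side as its U5 partner Prpf8, and neither passed with the GC and length offsets. Of other U5 proteins, Snrnp200 (-0.06), Snrnp40 (-0.08) and Prpf6 (-0.02) lay below 0 and Txnl4a (0.07) above, and none passed.

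The start regions of the members were compared in RefSeq sequence on the build GRCm38.p6, over the 250 bases before the most upstream listed start; 58 of the 71 members had an entry. Searched on both strands were the ETS motif CCGGAAG, the CCAAT box CCAAT, the SP1 motif GGGCGG and the TATA box TATAAA, none of which contains another. The ETS motif was found in 9 of 22 core genes (40.9%) and 2 of 18 hnRNP genes (11.1%), against 15.5% of 8979 tested genes. The CCAAT box went the other way, in 12 of 18 hnRNP genes (66.7%) and 7 of 22 core genes (31.8%), against 37.5% of all. By call, the CCAAT box was in 4 of 10 higher members (40%) and 2 of 3 lower members (66.7%). The ETS motif was in 1 of 10 higher members (10%) and 1 of 3 lower members (33.3%). The SP1 motif was in 61.4% of members and 59.8% of all genes, and the TATA box in 5.26% and 6.05%. The median GC content of this stretch was 58.4% over the 10 higher members, 60.4% over the 3 lower members with an entry and 60.0% over all genes. A match describes the letters and is no evidence of binding. The following 4 stretches are the 120 bases before the start of 2 higher and 2 lower members, 5′ to 3′ on the strand of the gene, shown so that the motifs found can be seen in place; capitals mark the motif or its reverse complement (the CCAAT box in Hnrnpa2b1 and Prpf8, the SP1 motif in Prpf39, the ETS motif in Sf3a3).
Hnrnpa2b1, higher on MSA-DA, chr6:51469895-51470014, minus strand: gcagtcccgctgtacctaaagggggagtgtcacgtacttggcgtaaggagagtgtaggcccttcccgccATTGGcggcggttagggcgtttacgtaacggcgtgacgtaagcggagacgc
Prpf39, higher on MSA-DA, chr12:65036214-65036333, plus strand: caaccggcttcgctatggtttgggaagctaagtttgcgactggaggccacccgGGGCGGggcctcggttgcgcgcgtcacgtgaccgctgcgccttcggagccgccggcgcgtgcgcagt
Prpf8, lower on MSA-DA, chr11:75486657-75486776, plus strand: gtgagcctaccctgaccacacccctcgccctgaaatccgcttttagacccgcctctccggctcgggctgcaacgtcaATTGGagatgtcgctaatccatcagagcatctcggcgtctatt
Sf3a3, lower on MSA-DA, chr4:124714741-124714860, plus strand: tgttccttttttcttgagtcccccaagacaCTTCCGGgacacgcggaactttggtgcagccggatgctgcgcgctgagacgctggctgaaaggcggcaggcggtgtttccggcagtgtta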

How the data were processed

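Total RNA was extracted with Trizol and sequenced, per the labels' protocols, in 3 MSA-DA and 3 MSA-ZW libraries, grouped by their titles. Per the submitters' processing notes, the tools were HISAT2 2.2.1, cutadapt 1.9.1 and bcl2fastq 2.20.0.422 and the build GRCm39. How and by which annotation reads were assigned to genes, and whether by strand, is not stated in those notes or the labels. Per the file headers, the authors' table holds raw counts and FPKM per gene; each FPKM is the count over exonic length and library total, to within 0.005. No 2 libraries agreed within sampling noise, so all 6 were used.

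The deposited counts were tested with edgeR 4.0.16 in R 4.3.3 (filterByExpr, TMM, glmQLFit, glmQLFTest, group as the only term; common biological coefficient of variation 3.04%). P-values were adjusted by Benjamini-Hochberg over all 12467 tested genes, with a threshold of 0.05. CPM use TMM-scaled library sizes, and intervals are 95% intervals of the fitted difference. Alternatives were DESeq2 1.42.0, limma 3.58.1 on log2(FPKM + 1) and log2(FPKM + 0.1) (FPKM of 1 or more in 3 libraries), and other scalings and filters. Further ones were leaving out ribosomal-RNA-like and mitochondrial genes, GC and length offsets (loess, span 0.4), a replicate block, and leaving out each library. GC content came from the longest GENCODE transcript of GRCm38, used for composition only. The length in the offsets was the exonic length of the deposited table. The fit was also run on simulated data, with folds larger than those of nearly all called members. Recovery of changes as small as theirs was not tested.

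Named are every called member, the most abundant member of each class, Snrnp70, Sf3b1, Prpf8, U2af1, U2af2, Hnrnpa1, Hnrnpa2b1, Hnrnpc, Hnrnpk, Hnrnpu and Snrpn, and up to 2 called genes a direction in each related list; other named members were added for their role after their values were seen. The values of 1 member are not reported here, though counts and class summaries include it. The members and lists were chosen with earlier results of these data known.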

Additional observations from a re-analysis of the deposited data

How the results depend on the processing

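Among 24 named genes, 17 kept their side of the threshold in all 17 alternatives. Members called lower, 4 in the test as reported, numbered 1 in DESeq2, 1 with no filter on low counts, 0 in limma with either pseudocount, 1 with GC and length offsets, 2 with a replicate block, 0 with a replicate block and GC and length offsets, and 0 to 5 without 1 library each. Core genes called lower, 3 as reported, numbered 1, 1, 0, 1, 1 and 0 in the same order, and 0 to 3 without 1 library; core genes called higher numbered 1 to 2 without 1 library. The 1 lower hnRNP gene became 0 in DESeq2, with no filter, in limma, with the offsets and with block and offsets, and 0 to 2 without 1 library. Related genes called higher, 8 as reported, numbered 5 in limma and 5 with the offsets, with or without the block, and 3 to 8 without 1 library; those called lower, 3 as reported, numbered 0 in DESeq2, 0 with the offsets, with or without the block, and 0 to 2 without 1 library. The cause of these shifts was not tested.

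The members' median of 0.02 became 0.012 in limma with either pseudocount, -0.0061 with the offsets and -0.0054 with block and offsets. The hnRNP median of 0.04 became 0.013 with the offsets, with or without the block, and the core median ran from -0.045 to 0.00046 without 1 library. Log2 differences that turned negative with the offsets alone, and with block and offsets, were those of Hnrnpu (-0.0015 and -0.00091), Snrpd1 (-0.020 and -0.020), Sf3b1 (-0.00093 and -0.00021), Hnrnpc (-0.014 and -0.014) and Hnrnpk (-0.028 and -0.028). Snrnp70 turned negative in limma (-0.0036 and -0.0037), without ribosomal-RNA-like and mitochondrial genes (-0.0015), without MSA-DA 1 (-0.015) and without MSA-ZW 3 (-0.0069); without 1 library it reached 0.0097 at most, and its largest value was 0.07, with the offsets (edgeR adjusted p = 0.0851) and with block and offsets (0.0841). None of these 6 genes passed in any setting.

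The replicate numbers did not pair the libraries: same-numbered libraries had correlations of deviations of 0.01, -0.01 and -0.02, and 2 of the 6 libraries correlated best with their own number. With the block, 12 members and 1594 of all genes were called, in place of 14 and 1673. Depth limits Snrpn, U2af1l4 and Snrpert, the members with the fewest counts.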

Other observations

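Close relatives among the members gave different log2 differences. Their ratio within a library does not depend on library scaling, but it is not adjusted for GC content. These pairs were picked after the values were seen, with a called gene first in each, so no test is given. The log2 ratio of FPKM of Hnrnph1 to Hnrnph2 was 1.08, 1.08 and 1.13 in the MSA-DA libraries, against 0.95, 0.79 and 0.88 in the MSA-ZW libraries. That of Hnrnpdl to Hnrnpd was 0.26, 0.27 and 0.27 on MSA-DA, against -0.01, 0.09 and 0.05 on MSA-ZW. That of Prpf38b to Prpf38a was 0.88, 0.92 and 0.81 on MSA-DA, against 0.68, 0.66 and 0.62 on MSA-ZW. In all 3 pairs the MSA-DA libraries lay above the MSA-ZW libraries. Hnrnpa1 to Hnrnpa0, at 2.80, 2.73 and 2.78 on MSA-DA against 2.51, 2.69 and 2.46 on MSA-ZW, came closest to overlap, with MSA-ZW 2 just below the MSA-DA libraries. The GC content was 44.1% for Hnrnpa1 and 55.4% for Hnrnpa0. With the GC and length offsets their log2 differences were 0.08 and -0.05, in place of 0.12 and -0.10. Hnrnpdl, at 46.4% GC, lay above Hnrnpd, at 41.7%.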
